A study of Mus musculus with 48 samples.

Results

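The genes described here were 10 markers of Kupffer cells and other resident tissue macrophages: *Clec4f*, *Cd5l*, *Timd4*, *Vsig4*, *Marco*, *C1qa*, *C1qb*, *C1qc*, *Cd163* and *Csf1r*. They were chosen by name as known markers of these cells, and every probe whose accession maps to one of these symbols was taken. This gave 12 probes for 10 genes, out of 18434 named genes on the arrays. *Csf1r* had 3 probes and each other gene had 1. Of the *Csf1r* probes, the one with the highest mean Cy3 signal stands for the gene.

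RNA of liver and whole colon was measured in C57/BL6 mice aged 12 weeks on 48 Agilent 2-colour arrays, 24 for each tissue. All dams and offspring ate a high-fat diet that was supplemented with (H) or marginally deficient in (L) both selenium (Se) and folate. By the methods, diet H held more of both than the recommended requirements, and diet L held less. The first letter of a group is the diet of the dam in gestation and lactation, and the second is the diet of the offspring after weaning. HH mice had diet H throughout, HL mice had diet L after weaning only, LH mice came from dams on diet L and ate diet H after weaning, and LL mice had diet L throughout. The design asks whether diet L in the dam or in the offspring goes with other marker levels, and the 2 tissues allow a comparison of their levels. In the liver there were 5 HH, 6 HL, 6 LH and 6 LL mice, because 2 of the HH arrays carried RNA of a single animal by their labels and were averaged as HH liver replicate 3. In the colon there were 6 mice in each group. The RNA of each mouse carried Cy3 and a common reference carried Cy5 on every array, with no dye swap. The deposited series text describes the reference as RNA of a pregnant mouse and its foetus, whereas the methods describe pooled intestinal and liver RNA, so a level has no meaning beyond its ratio to that reference. All levels below are log2 ratios of mouse over reference for 1 probe, and levels of different probes were not compared. No record ties a liver sample to a colon sample of the same animal, and within a tissue the samples with the same replicate number shared a slide, except that HH liver replicate 3 lay on slides 3 and 6.

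Kupffer cells are the macrophages that line the sinusoids of the liver. They clear particles, microbes, dying cells and old red cells from portal blood, and in the adult they are largely self-renewing. The colon has a large macrophage population too, which is mostly replenished from blood monocytes and lies below the epithelium. *Clec4f* encodes a C-type lectin that in the mouse is held to be specific to Kupffer cells. *Cd5l* encodes a protein secreted by tissue macrophages, *Timd4* a receptor for phosphatidylserine on dying cells, *Vsig4* a complement receptor, *Marco* a scavenger receptor for bacteria and particles, and *Cd163* the receptor for haemoglobin bound to haptoglobin. *C1qa*, *C1qb* and *C1qc* encode the 3 chains of C1q, the recognition subunit of the classical complement pathway, which macrophages make. *Csf1r* encodes the receptor for the macrophage growth factors CSF1 and IL-34. In whole tissue, fewer macrophages and less RNA of a gene per macrophage cannot be told apart.

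The promoters of 5 genes whose levels rose and fell together across the livers are shown, because they let a reader look for shared elements in genes that covary. Each window runs from 250 bases before to 50 bases after the annotated start of the RefSeq gene, 5′ to 3′ on the coding strand, in build GRCm38.p6. Capitals mark GAGGAA, or TTCCTC on the other strand, a core sequence bound by ETS factors such as the macrophage factor encoded by *Spi1*. The windows are chr6:83656067-83656366 (minus strand) for *Clec4f*, chr3:87357631-87357930 (plus strand) for *Cd5l*, chrX:96293389-96293688 (minus strand) for *Vsig4*, chr4:136886151-136886450 (minus strand) for *C1qb* and chr4:136892865-136893164 (minus strand) for *C1qc*.
*Clec4f*: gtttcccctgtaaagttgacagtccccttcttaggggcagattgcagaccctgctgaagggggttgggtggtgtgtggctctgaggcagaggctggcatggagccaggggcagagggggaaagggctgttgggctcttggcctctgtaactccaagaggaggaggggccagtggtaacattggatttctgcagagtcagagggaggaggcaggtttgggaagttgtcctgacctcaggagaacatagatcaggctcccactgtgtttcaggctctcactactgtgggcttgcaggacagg
*Cd5l*: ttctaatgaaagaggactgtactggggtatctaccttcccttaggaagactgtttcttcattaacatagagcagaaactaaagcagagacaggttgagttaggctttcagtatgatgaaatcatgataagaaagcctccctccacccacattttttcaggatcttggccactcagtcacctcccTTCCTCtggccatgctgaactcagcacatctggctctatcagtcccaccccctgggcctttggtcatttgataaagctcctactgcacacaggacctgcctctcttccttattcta
*Vsig4*: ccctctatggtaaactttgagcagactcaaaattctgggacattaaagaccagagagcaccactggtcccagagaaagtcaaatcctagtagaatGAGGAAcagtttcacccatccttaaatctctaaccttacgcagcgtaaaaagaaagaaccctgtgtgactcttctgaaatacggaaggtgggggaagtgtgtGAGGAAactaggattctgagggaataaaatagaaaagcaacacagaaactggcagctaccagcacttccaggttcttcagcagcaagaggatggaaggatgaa
*C1qb*: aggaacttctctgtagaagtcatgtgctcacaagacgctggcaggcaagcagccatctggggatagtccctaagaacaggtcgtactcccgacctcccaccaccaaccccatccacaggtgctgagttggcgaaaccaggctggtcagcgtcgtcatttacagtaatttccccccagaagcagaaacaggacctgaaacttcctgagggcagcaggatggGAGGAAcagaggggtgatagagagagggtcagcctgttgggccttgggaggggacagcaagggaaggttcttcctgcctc
*C1qc*: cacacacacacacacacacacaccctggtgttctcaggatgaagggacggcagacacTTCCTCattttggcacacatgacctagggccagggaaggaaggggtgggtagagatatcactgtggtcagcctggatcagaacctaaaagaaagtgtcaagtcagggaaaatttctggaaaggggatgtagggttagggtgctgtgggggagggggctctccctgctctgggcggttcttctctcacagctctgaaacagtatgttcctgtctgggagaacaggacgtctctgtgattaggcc

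Of the 10 genes, 8 had a promoter window among those searched, which did not cover every chromosome. *C1qa* and *Csf1r* had no window among them. GAGGAA or TTCCTC was found in 5 of the 8 windows, against 28.3% of the 32851 promoter windows searched. It began 66 bases before the start in *Cd5l*, 155 and 53 bases before it in *Vsig4*, 146 in *Marco*, 30 in *C1qb* and 193 in *C1qc*. *Clec4f*, *Timd4* and *Cd163* had no match in this window. TGCTGA or TCAGCA, a half-site of MAF factors, was in 5 of 8 windows against 19.5%, namely those of *Clec4f*, *Cd5l*, *Timd4*, *Vsig4* and *C1qb*. AGGTCA or TGACCT, a half-site of nuclear receptors, was in 3 of 8 against 16.3%, namely *Clec4f*, *Timd4* and *C1qc*. The 3 motifs do not contain each other, and a match is a description of the letters only.

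Tissue identity was checked on fixed gene lists. All 5 measured hepatocyte genes were higher in liver, and all 6 colon epithelium and all 4 smooth muscle genes were lower there. The share of Cy3 spots above background was 55.1 to 66% on liver arrays and 66.8 to 73.7% on colon arrays. The 12 slides were each hybridised with a single tissue, with every diet group present once, so tissue and slide cannot be told apart. Some samples stood apart before any marker was tested. High *Xist*, over 2 log2 units above the tissue median, was found on 2 of 24 liver and 6 of 24 colon arrays, although the methods describe male offspring. On 1 of these liver and 3 of these colon arrays the Y-linked gene *Eif2s3y* was also over 2 log2 units below the tissue median. The livers were HL replicate 2 and LL replicate 6. The colons were HH replicates 1 and 5, HL replicate 5 and LL replicates 1, 3 and 5, so the diet groups were uneven and LH had none. HL liver replicate 1 had a pancreas list mean of 1.09 (next highest liver −2.10), and LH liver replicate 4 an adipose list mean of 1.80 (next −0.25). LL colon replicate 4 stood apart for the macrophage markers and is described on its own below.

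Every member was above background in Cy3 on all 24 liver arrays. In the colon *Vsig4* and *Timd4* were above background on 20 of 24 arrays and the other members on all 24, and no spot was saturated. The dimmest *Csf1r* probe was above background on 10 of 24 liver arrays. The 2 arrays of the single HH liver mouse differed by a median of 0.15 over the 10 genes and by at most 0.25, which gives the size of the technical error.

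Liver and colon were compared first, over 47 samples. Of the 10 markers, 5 were higher in liver beyond a fold change of 1.5 and an FDR of 0.05 (limma, Benjamini-Hochberg over all probes), while 14.6% of all 41171 probes were called higher and 15.7% lower in liver. The 5 were *Clec4f*, *Cd5l*, *Vsig4*, *Marco* and *Timd4*. The C1q chains, *Cd163* and *Csf1r* did not pass. All are shown in the plot of levels by sample.

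**Figure D1:**
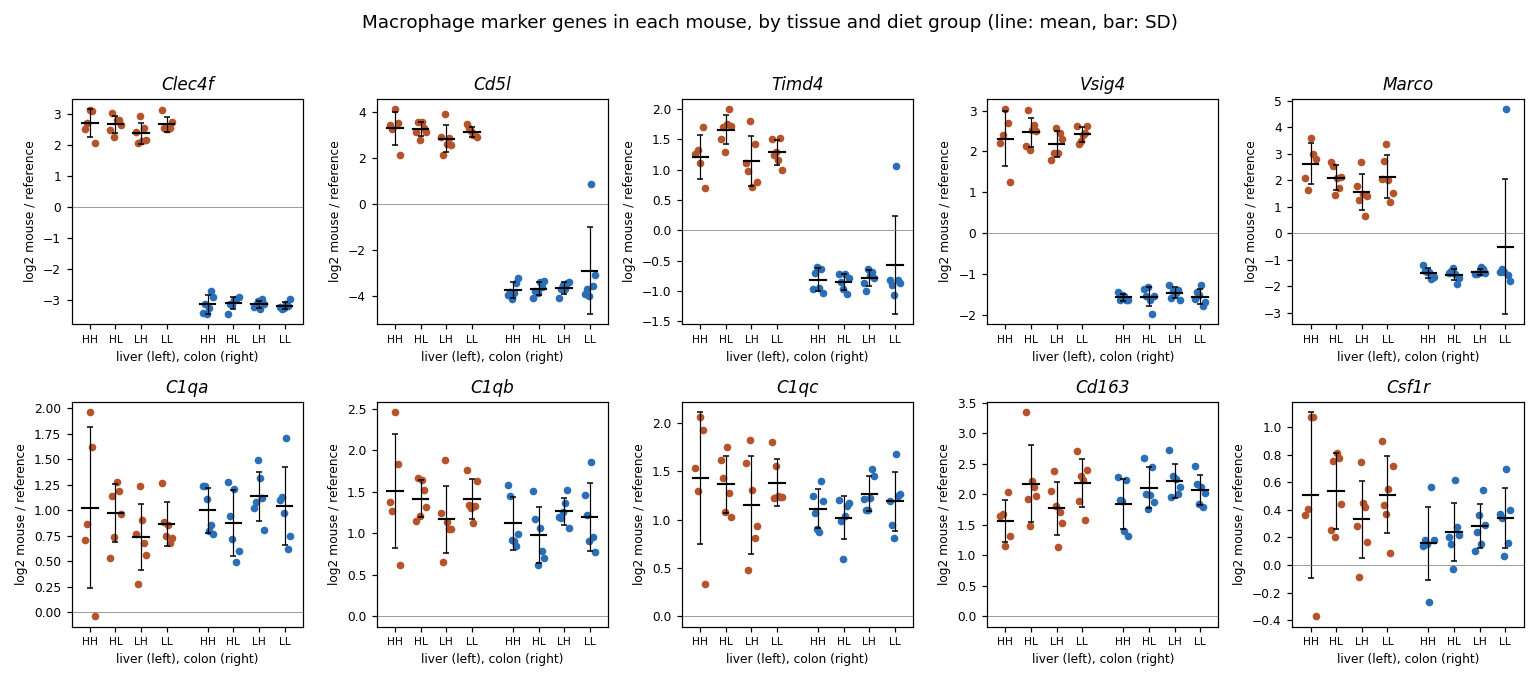
Log2 level of mouse over reference (y axis, own scale in each panel) of the 10 markers in each sample of the 4 diet groups, liver on the left and colon on the right of each panel. Points are samples, the line is the group mean and the bar its SD. *Clec4f*, *Cd5l* and *Vsig4* do not overlap between the tissues, and 1 LL colon sample lies far above the other colons for *Marco* and *Cd5l*.

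*Clec4f*, the Kupffer cell lectin, had levels of 2.06, 2.51, 2.70, 3.09 and 3.11 in the 5 HH livers. Its levels in the other livers were 2.24 to 3.03 in HL (median 2.71), 2.04 to 2.93 in LH (median 2.28) and 2.51 to 3.12 in LL (median 2.53). In the colon all 24 samples lay between −3.44 and −2.71. No colon came near a liver. The difference was 5.73 log2 units (SE 0.08, 53.2-fold, adjusted p = 2.24e-45 by limma), with a 95% interval of 5.58 to 5.89.

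*Cd5l*, the secreted macrophage protein, had levels of 2.12, 3.26, 3.43, 3.54 and 4.12 in the HH livers. The HL livers lay between 2.80 and 3.59 (median 3.21), the LH livers between 2.14 and 3.90 (median 2.75) and the LL livers between 2.92 and 3.47 (median 3.09). In the colon 23 samples lay between −4.10 and −3.08, and LL replicate 4 was at 0.90. The tissues did not overlap. Liver exceeded colon by 6.60 log2 units (SE 0.22, 97.2-fold, limma adjusted p = 1.37e-29), or by 6.79 (111-fold) without LL colon replicate 4.

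*Vsig4*, the complement receptor, had levels of 1.25, 2.20, 2.40, 2.69 and 3.03 in the HH livers. It ranged from 2.03 to 3.01 in HL (median 2.51), from 1.80 to 2.58 in LH (median 2.13) and from 2.17 to 2.63 in LL livers (median 2.42). The colons lay between −1.98 and −1.27, below every liver. The difference was 3.88 log2 units (SE 0.09, 14.7-fold, limma adjusted p = 3.46e-36). The probe was above background on 20 of 24 colon arrays, and the difference was 3.16 to 5.62 over the processing alternatives.

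*Marco*, the scavenger receptor, varied more among livers than any other member, with an SD of 0.75 over the 23 liver mice. The HH livers were at 2.08, 1.63, 3.60, 2.99 and 2.80 and the HL livers at 2.68, 2.54, 1.45, 2.07, 1.72 and 2.11. The LH livers were at 1.80, 1.27, 2.70, 1.46, 0.64 and 1.38, and the LL livers at 2.03, 2.71, 3.37, 2.00, 1.18 and 1.51. The HH group held the highest liver and the LH group the lowest, and all groups overlapped. In the colon 23 samples lay between −1.91 and −1.21, and LL replicate 4 was at 4.67, above every liver. Liver exceeded colon by 3.36 log2 units (SE 0.29, 10.2-fold, limma adjusted p = 2.72e-14), or by 3.62 (12.3-fold) without that colon.

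*Timd4*, the phosphatidylserine receptor, was at 1.25, 1.32, 1.11, 1.69 and 0.69 in the HH livers and at 1.5, 1.69, 1.28, 1.75, 1.99 and 1.71 in the HL livers. The LH livers lay between 0.71 and 1.80 (median 1.04) and the LL livers between 0.99 and 1.51 (median 1.26). The HL livers were mostly in the upper part of the range, but overlapped with each other group. In the colon 23 samples lay between −1.07 and −0.61 and LL replicate 4 was at 1.07. The tissues overlapped through that sample alone. Liver exceeded colon by 2.08 log2 units (SE 0.11, 4.23-fold, limma adjusted p = 2.45e-22), or by 2.16 (4.48-fold) without it. Its probe was also above background on 20 of 24 colon arrays, and the difference was 1.55 to 3.72 over the processing alternatives.

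The C1q chains had similar ranges in both tissues. *C1qa* lay between −0.04 and 1.96 in the livers and between 0.49 and 1.70 in the colons, *C1qb* between 0.62 and 2.46 and between 0.62 and 1.87, and *C1qc* between 0.34 and 2.05 and between 0.59 and 1.68. HH liver replicate 3 was highest for all 3 chains, and HH liver replicate 5 was lowest. Liver minus colon was −0.12 for *C1qa* (95% interval −0.33 to 0.10), 0.24 for *C1qb* (0.03 to 0.45) and 0.18 for *C1qc* (−0.02 to 0.39). *C1qb* had an adjusted p of 0.037 by limma but a fold change of 1.18, under the threshold. With each array centred on its median in place of loess, the median of all probes moved to 0.22, *C1qb* and *C1qc* turned to −0.39 and −0.38, and *C1qa* was called lower in liver at −0.74 (limma adjusted p = 3.66e-08).

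*Csf1r*, the growth factor receptor, lay between −0.37 and 1.07 in the livers and between −0.27 and 0.69 in the colons. The difference was 0.22 log2 units (SE 0.09, 1.16-fold, limma adjusted p = 0.0212), under the fold threshold, and −0.39 with median centring. The other probes of *Csf1r* differed by 0.16 and 0.06 between the tissues. Across livers, the second probe followed the first with r = 0.856 and the third, dim in liver, with r = 0.367. *Cd163*, the haemoglobin scavenger receptor, lay between 1.13 and 3.35 in the livers and between 1.32 and 2.72 in the colons. Its difference was −0.14 (95% interval −0.36 to 0.09, limma adjusted p = 0.286). With median centring it was called lower in liver, at −0.67 (limma adjusted p = 2.47e-08).

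**Figure D2:**
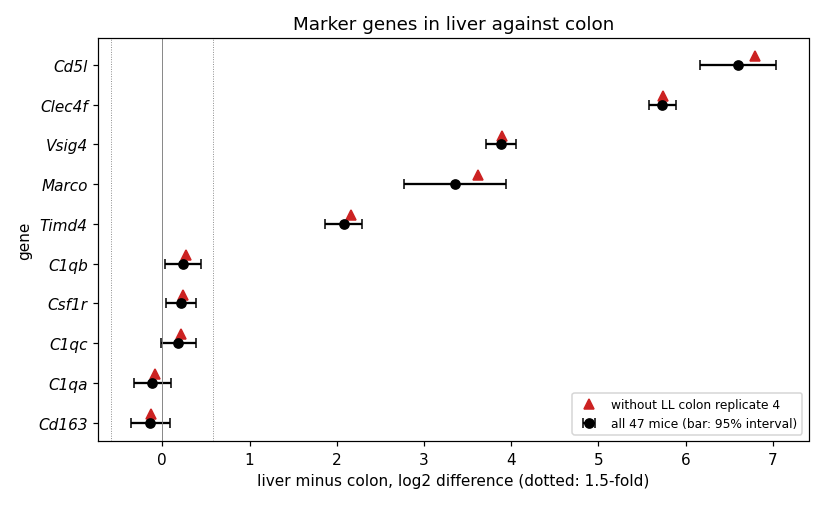
Liver minus colon (x axis, log2 units) for the 10 markers with 95% intervals, over 47 samples, and triangles for the same without LL colon replicate 4. *Clec4f*, *Cd5l*, *Vsig4*, *Marco* and *Timd4* lie between 2.08 and 6.60, and the C1q chains, *Csf1r* and *Cd163* between −0.14 and 0.24.

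Other genes of the same cells, from lists, also differed among themselves. Of 11 other Kupffer cell genes, 8 were called higher and 1 lower in liver, against 14.6% and 15.7% of all probes, and the same shares stand beside each list here. *Clec1b*, a C-type lectin, was 4.70 log2 units higher (25.9-fold), *Nr1h3*, the liver X receptor alpha gene, 2.66 (6.33-fold), and *Fcna*, a ficolin, 2.37 (5.16-fold), while *Cd38* was 2.17 lower (4.51-fold). Of 13 measured genes shared by most macrophages, 2 were higher in liver, *Mrc1* and *Msr1*, about the share of all probes, and 4 were lower, among them *Ctss* and *Cd14*. The pan-macrophage gene *Adgre1*, which encodes F4/80, differed by 0.04. Of 10 monocyte and recruited myeloid genes, 8 were lower in liver and 1 was higher. All 12 genes of the classical complement pathway and its regulators were higher in liver. C1q partners that hepatocytes secrete, such as *C1ra* (2.86) and *C1s1* (2.19), were therefore among the called genes, while the C1q chains were not. Of 7 myeloid transcription factors, 3 were higher and 1 lower, and *Spi1* differed by −0.07. These are values of whole tissue, and the part of other cells, such as hepatocytes, in them was not tested.

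The diet groups were then compared within each tissue. In none of the 12 contrasts was a member called (0 of 10), and no probe of the arrays was called either (0% in each contrast, limma, fold change over 1.5 and FDR under 0.05). Members with an unadjusted p under 0.05 are therefore given with the share of all probes that had such a p. In liver this was 1 of 10 members against 12% of probes for HH *vs.* LH, 2 of 10 against 4.38% for HH *vs.* HL, and 1 of 10 against 3.45% for HH *vs.* LL. It was 0 of 10 against 4.14% for the diet of the dam, 2 of 10 against 1.37% for the diet of the offspring, and 1 of 10 against 11.4% for their interaction. In colon it was 1 of 10 against 3.24% for HH *vs.* LH. It was 0 of 10 in the other colon contrasts, against 1.46% for HH *vs.* HL, 1.72% for HH *vs.* LL, 2.11% for the dam, 2.04% for the offspring and 1.79% for the interaction. With slide as a block, 1 of 10 members had such a p in each of 4 contrasts where it was 0 without it. In liver this was *Marco* for the dam (−0.60). In colon it was *Cd163* for HH *vs.* HL (0.27) and the interaction (−0.43), and *C1qc* for the dam (0.16). No member was called. With the block, the share of all probes is given for HH *vs.* LH liver only (17.3%, against 12% without it). These 4 counts therefore have no share to be read against. For no member did 2 diet groups lie apart without overlap. Leaving out the mice with high *Xist* gave 0 calls among the members in the diet contrasts and kept the direction of the differences in *Marco*, *Cd163* and *Timd4* given below. The 3 contrasts against HH share the HH mice.

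**Figure D3:**
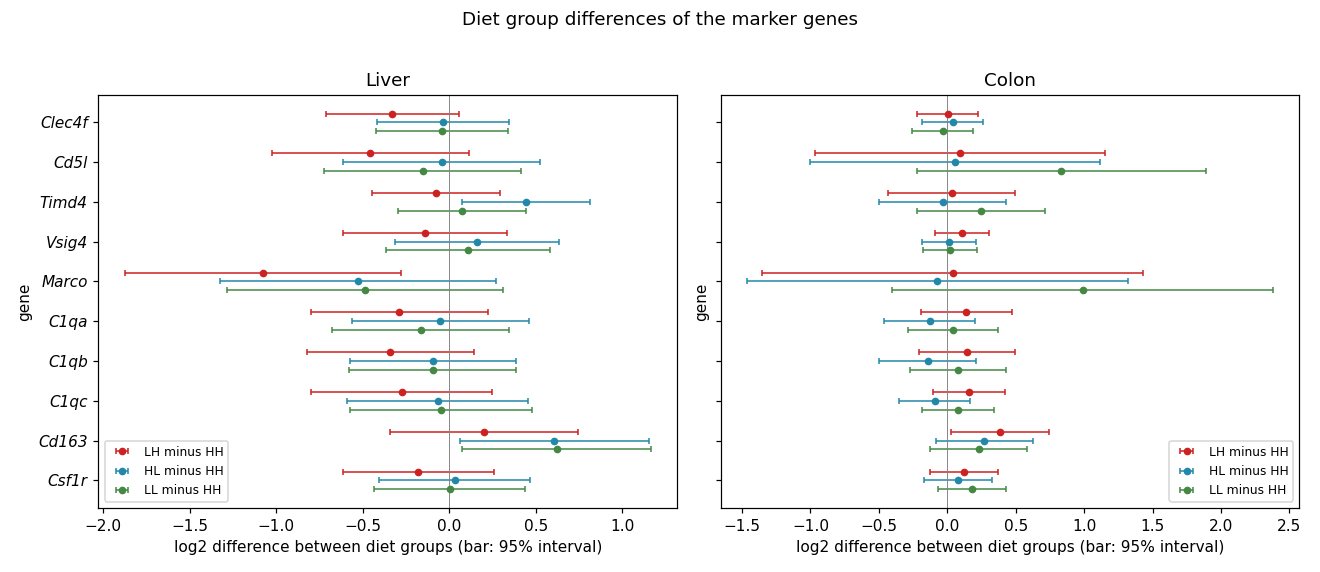
Difference of LH, HL and LL from HH (x axis, log2 units) with 95% intervals for the 10 markers in liver and colon. Most intervals include 0, and the *Marco* interval for LH in liver runs from −1.87 to −0.28.

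For *Marco* the mean level was 1.54 ± 0.68 (SD, n = 6) in LH livers and 2.62 ± 0.77 (SD, n = 5) in HH livers. The difference of −1.08 log2 units (SE 0.38, 2.11-fold) had a 95% interval of −1.87 to −0.28 and an adjusted p of 0.287 by limma, so it did not pass. Within slides LH was below HH on 6 of 6 slides, by −0.28 to −2.34, but 2 of these slides carried the same HH mouse, so that every count over liver slides rests on 5 HH mice. With slide as a block it was −1.24 (limma adjusted p = 0.0858). The HL and LL livers were at 2.09 ± 0.47 and 2.13 ± 0.80 (SD, n = 6 each), and the interaction was 1.12 (SE 0.53, limma adjusted p = 0.433).

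The other members were mostly lower in LH than HH as well, 9 of 10 in all, with a median of −0.28 against −0.01 over all probes. *Clec4f* differed by −0.33 (95% interval −0.71 to 0.05), *Cd5l* by −0.46 (−1.02 to 0.11) and *C1qb* by −0.34 (−0.82 to 0.14). With slide as a block the median was −0.39, and 3 of 10 members had p under 0.05 by limma (17.3% of probes). The size of these values depended on which HH mice were included. HH liver replicate 3 was the highest of all livers for 6 of 10 members, and HH liver replicate 5 the lowest for 7. Without replicate 5, 8 of 10 members had p under 0.05 (10.3% of probes), with a median of −0.52 and no member called. Without replicate 3 it was 1 of 10 (13.9% of probes), with a median of −0.10. Both mice were singled out by these same values. For members where replicate 5 was the lowest HH mouse, leaving it out moves the difference further below 0 by construction. Leaving out replicate 3, where it was the highest HH mouse, moves the difference up by construction in the same way. The counts of 8 and 1 were thus in part fixed by that choice, and most of the members followed each other across livers. The *Marco* difference was −1.03 without replicate 5 and −0.83 without replicate 3. HH liver replicate 3 was also the highest liver for the list of genes shared by most macrophages, at 0.91 against 0.21 for the next.

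The other lists in HH *vs.* LH liver held no called gene, and 12% of all probes had an unadjusted p under 0.05 in this contrast. Genes with an unadjusted p under 0.05 were lower in LH for 4 of 13 pan-macrophage genes, such as *Cd14* (−0.53), the co-receptor for bacterial lipopolysaccharide, for 1 of 11 other Kupffer cell genes (*Hmox1*, −0.52), for 2 of 10 monocyte genes and for 2 of 5 neutrophil genes. The same held for lists of other cells, with 2 of 7 lymphocyte genes (*Cd3d*, −0.57, and *Klrb1c*, −0.28), 1 of 4 erythroid genes (*Hba-a1*, −0.49) and 1 of 6 stellate cell and fibroblast genes (*Lrat*, −0.40) lower. The counts for other Kupffer cell and monocyte genes were near the share of all probes. Without HH replicate 5 the counts were 7 of 13 pan-macrophage, 5 of 11 other Kupffer cell and 1 of 10 monocyte genes (10.3% of probes). Without HH replicate 3 they were 1 of 13, 0 of 11 and 0 of 10 (13.9% of probes). Both mice were picked by the values of the members, and HH replicate 3 was also the highest liver for each of these lists. The pan-macrophage and other Kupffer cell lists followed *Clec4f* across livers. The changes in these counts were thus in part fixed by the choice of mice. The neutrophil count was 2 of 5 in both fits. The neutrophil genes were *S100a8* (−1.29, SE 0.29, limma adjusted p = 0.182) and *S100a9* (−1.46). Of the 12 complement genes, 8 were higher in LH with such a p, among them *C1ra* (0.39), *C1s2* (0.67) and *C1rb* (0.87), which encode the proteases that C1q carries. Without HH replicate 5 this was 5 of 12 (10.3% of probes), and without HH replicate 3 it was 7 of 12 (13.9% of probes). Of 5 hepatocyte genes, 2 were higher in LH. Genes of the remaining lists with such a p went both ways. Among cytokine receptor genes *Csf3r* was higher in LH (0.53) and *Csf2ra* lower (−0.34). Among ligands and partners of the scavenger receptors *Timd2* was higher (0.31) and *Cd36* lower (−0.69).

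*Cd163* had higher group means in livers of offspring on diet L, with no adjusted p under 0.05. The HH livers were at 1.64, 1.68, 1.15, 2.05 and 1.32 and the HL livers at 3.35, 1.92, 1.48, 2.21, 2.12 and 1.97. The LH livers were at 2.05, 2.39, 1.81, 1.13, 1.71 and 1.53, and the LL livers at 2.71, 1.90, 2.30, 2.24, 1.58 and 2.40. HL liver replicate 1, the sample with the high pancreas list, was the highest, and the groups overlapped. The difference between HL and HH was 0.61 (95% interval 0.06 to 1.15, limma adjusted p = 0.952), and that between LL and HH was 0.62 (0.08 to 1.17, limma adjusted p = 1). Both were above 0 on 6 of 6 slides, which held 5 HH mice. For the diet of the offspring over both dam diets it was 0.51 (SE 0.18, 95% interval 0.14 to 0.89, limma adjusted p = 1), with 5 of 6 slides in that direction. Without HL liver replicate 1 the HL difference was 0.37 and no longer had an unadjusted p under 0.05, and the offspring difference was 0.40 and still did. In colon *Cd163* differed between LH and HH by 0.39 (SE 0.17, limma adjusted p = 1), above 0 on 5 of 6 slides, and by 0.60 without the mice with high *Xist* (limma adjusted p = 1). The offspring difference in liver minus that in colon was 0.46 (limma adjusted p = 1).

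*Timd4* was 1.65 ± 0.24 (SD, n = 6) in HL livers and 1.21 ± 0.36 (SD, n = 5) in HH livers. The difference was 0.44 (SE 0.18, limma adjusted p = 0.952), above 0 on 6 of 6 slides with 5 HH mice. Without HH liver replicate 5 it was 0.31, and the unadjusted p was no longer under 0.05. Over the processing alternatives it was 0.18 to 0.53, lowest with the local backgrounds as deposited. For the diet of the offspring it was 0.30 (95% interval 0.04 to 0.55, limma adjusted p = 1). The LL livers, at 1.28 ± 0.20 (SD, n = 6), differed from HH by 0.07.

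In the colon the remaining differences from HH were small once LL replicate 4 was set aside. With that sample, LL minus HH was 0.99 for *Marco*, 0.83 for *Cd5l* and 0.25 for *Timd4*. Without it the values were −0.05, 0.08 and −0.08. All 10 members were higher in LH than HH colon, by a median of 0.12, and none but *Cd163* had a p under 0.05.

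The levels of the markers were then compared across the 23 liver mice as deviations from the mean of each diet group, with permutation p-values from 100000 permutations within groups, over 21 relations with Benjamini-Hochberg adjustment. *Csf1r* followed *Clec4f* most closely, with Pearson's r = 0.892 and Spearman's rho = 0.847 (adjusted permutation p = 5.25e-05 and 0.00021), and r = 0.855 without the 2 mice farthest from the median of *Clec4f*. *C1qb* had r = 0.876 (rho 0.834, 0.802 without those mice), *Cd5l* 0.873 (rho 0.818, 0.799) and *Vsig4* 0.857 (rho 0.823, 0.813). The values within slides were 0.938, 0.914, 0.898 and 0.896, in the order *Csf1r*, *C1qb*, *Cd5l* and *Vsig4*. *C1qa* (r = 0.85, rho 0.795, 0.788 without those mice), *Timd4* (0.756, rho 0.754, 0.622) and *C1qc* (0.738, rho 0.603, 0.584) came next. For these 7 genes the adjusted permutation p was at most 0.00158 for r and 0.0207 for rho. The raw permutation p of *Csf1r*, 1e-05, was the smallest that these permutations can give.

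*Marco* and *Cd163* did not follow *Clec4f* in the same way. *Marco* had r = 0.292 (rho 0.238, permutation p = 0.223, adjusted 0.293) and *Cd163* r = 0.177 (rho 0.179, permutation p = 0.425, adjusted 0.496). The difference between these and the other correlations was not tested. Of the lists, pan-macrophage genes followed *Clec4f* with r = 0.801 (rho 0.797, 0.718 without the 2 farthest mice) and other Kupffer cell genes with 0.795 (rho 0.709, 0.656). Genes of sinusoidal endothelium had r = 0.594 (rho 0.443, adjusted permutation p = 0.0284 for r and 0.107 for rho, r = 0.439 without the 2 farthest mice). Hepatocyte genes had r = −0.214, lymphocyte genes 0.127 and the share of Cy3 spots above background 0.106. HH liver replicates 3 and 5 lay at the upper and lower ends of most members.

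**Figure D4:**
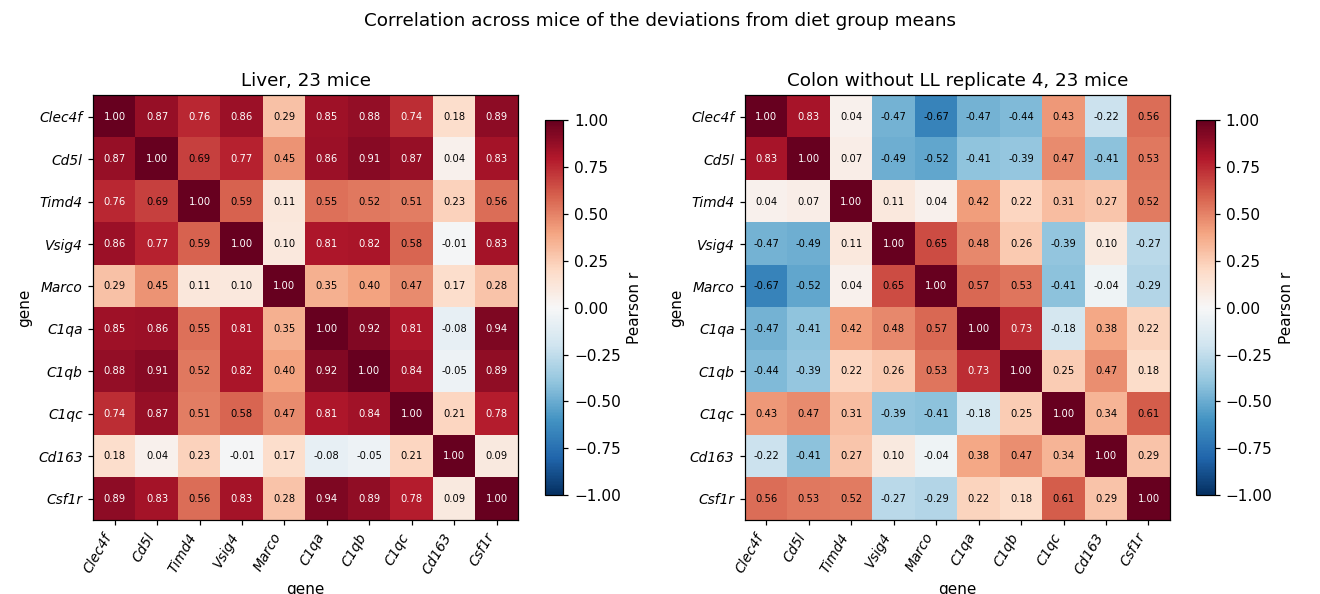
Pearson correlation between the markers across mice, as deviations from diet group means, in 23 livers and in 23 colons without LL replicate 4, with colour for r. In liver *Clec4f*, *Cd5l*, *Vsig4*, *Csf1r* and the C1q chains are correlated with r from 0.58 to 0.94, while *Cd163* is near 0 with most of them.

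The genes whose pattern across livers was most like the mean of the members, among 13717 genes, included *Adgre1* (r = 0.931), *Folr2* (0.87), *Clec4a3* (0.861), *Hk3* (0.86), *Ccl24* (0.86), *Slc11a1* (0.857), *Pilrb1* (0.852) and *Atp1b3* (0.847). *Adgre1* encodes F4/80 and *Folr2* the folate receptor beta of macrophages. These r values describe 23 mice and were selected as the highest.

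In colon, over 24 samples, *C1qa* and *C1qb* were correlated with r = 0.809 (rho 0.775, adjusted permutation p = 7e-05 for r), 0.697 without the 2 farthest samples and 0.878 within slides. *C1qa* and *C1qc* had r = 0.155 (rho −0.02) over all samples but r = 0.875 within slides, and *C1qa* and *Csf1r* 0.387 (rho 0.225) and 0.814. *C1qa* and *Cd163* had r = 0.342 (rho 0.442) and 0.399 within slides. The 10 genes most like the members in colon, led by *Il2rb* (r = 0.931 over 15285 genes), rested on LL replicate 4. Without it the list was led by *Fcer1g* (0.886), *Clec4a2* (0.808) and *Trem2* (0.798), 2 of the 10 genes were shared with the first list, and 0 were shared between liver and colon.

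LL colon replicate 4 differed from the other 23 colons in most members, which is shown as a description of 1 sample. *Marco* was at 4.67 against a median of −1.51, 72.8-fold higher, the largest excess of 18434 named genes. *Cd5l* was at 0.90 against −3.68, 23.8-fold higher and rank 4 in that order. *Timd4* was at 1.07 against −0.82, 3.7-fold higher. *C1qa*, *C1qb*, *C1qc*, *Csf1r* and *Vsig4* lay above all other colons by less, from 1.2-fold to 1.74-fold over the median. In all, 8 of 10 members lay above the other 23 colons, against 9.53% of all named genes.

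*Clec4f*, at −3.11, and *Cd163*, at 2.12, lay within the range of the other colons. The other genes highest in the sample included *Spic*, a transcription factor gene of red pulp and other iron-handling macrophages, at 2.75 (8.55-fold over the median), and *Clec1b* at 1.73 (8.45-fold). Of 7 lymphocyte genes, 6 lay above all other colons, with a list mean of 1.26 against 0.26 for the next sample, and of 6 sinusoidal endothelium genes 4 did. None of the 6 colon epithelium and 4 smooth muscle genes did. A further 6 genes were chosen after their values were seen, so that their place above all other colons is no test. *Ms4a1*, which encodes the B cell protein CD20, was at 4.22 (50.8-fold). The others were *Ccl19* (27-fold), *Cd79b* (18.8-fold), *Glycam1* (17.9-fold), *Cd22* (10.9-fold) and *Ccr7* (7.97-fold). The part of lymphocytes or other cells in the values of this sample was not tested.

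**Figure D5:**
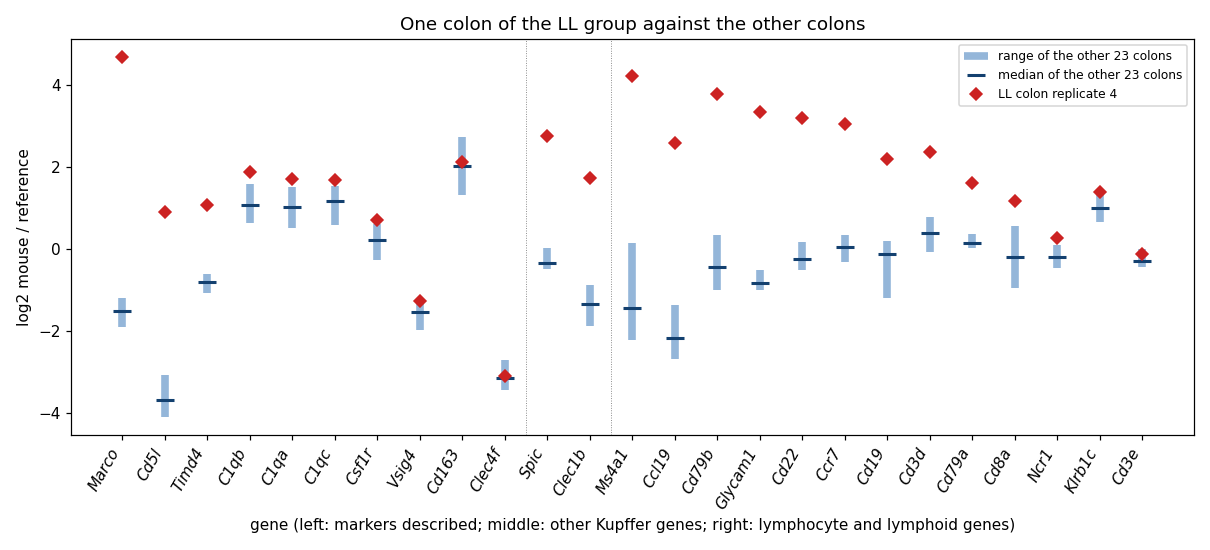
Log2 level in LL colon replicate 4 (marked point) beside the range and median of the other 23 colons. The 10 markers are on the left, and *Spic* and *Clec1b* are in the middle. On the right are 7 lymphocyte genes and 6 genes chosen after their values were seen. *Marco* (4.67), *Cd5l* (0.90) and *Timd4* (1.07) lie far above the other samples, while *Clec4f* and *Cd163* lie within their range.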

How the data were processed

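The scanner files that the authors deposited hold raw median intensities of spots and of their surroundings for Cy3 and Cy5, without normalization, and processed intensities, made with Feature Extraction 10.10.1.1 per the file headers. A matrix of log2 ratios, which the authors deposited as well, matched loess without background correction (r = 1 on every array), with reference over mouse as its direction. The submitters' processing notes name limma and R 3.0.2. Here R 4.3.3 with limma 3.58.1 and the data.table package (version 1.17.8) was used. Where a local background was brighter than its spot, it was replaced by the median of its array and channel. Correction of the background used normexp with an offset of 50, global loess followed, and non-uniform and outlier spots were left out. Arrays hold 45018 spots, 43379 of them not controls, for 41174 probes, of which 27050 had a gene name through the RefSeq gene list and 14124 had none. Spots of a probe were averaged. Each tissue was fitted with lmFit and eBayes as 4 groups, without a block, with Benjamini-Hochberg adjustment over all probes, and the tissues with 8 group means. Calls needed a fold change over 1.5 and an FDR under 0.05. The number of arrays limits the precision, and p-values rest on mice as replicates. The sample labels name no dam or litter, so littermates within a group could not be taken into account. This bears most on the contrasts of dam diet, which was given to dams.

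Members tested in full were those with an unadjusted p under 0.05 or groups that did not overlap. Of each other list at most 4 genes with the lowest p were to be named. *Ms4a1* and the genes of LL colon replicate 4 were named after seeing their values. The members and lists were chosen with earlier results of these data known. The model was tested on simulated data. Alternatives were other background corrections, processed signals, median centring, the deposited ratios, the Cy3 channel alone, a filter on dim probes, the 2 arrays of 1 mouse, slide as a block, array weights, all 8 groups in 1 fit, mice with *Xist* left out, each mouse left out, other thresholds and other probes. Leaving out LL colon replicate 4 and HL liver replicate 1 were added after seeing the data. HH liver replicates 3 and 5 were picked out from the fits without each mouse after seeing the data as well. Same-slide samples deviated together with a median r of 0.167 in liver (20 of 36 pairs over 0.1) and 0.36 in colon (34 of 36), against −0.03 and −0.13 for samples of other slides. The methods state no block, so the model had none, and the fit with slide as a block is given as an alternative. Some of the genes most like the members in liver are not reported here.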

Additional observations from a re-analysis of the deposited data

Results flagged for a closer look

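Within groups, 80 sets of values were examined for a sample far from the others, and 6 were found, while chance gives about 1 in 20. *Marco* (4.67), *Cd5l* (0.90) and *Timd4* (1.07) in LL colon replicate 4 each lay far above the other LL colons. *Clec4f* (3.12) and *C1qa* (1.27) in LL liver replicate 1 lay above the other LL livers, and *C1qc* (0.59) in HL colon replicate 3 below the other HL colons. All are log2 levels of mouse over reference, and no cause was tested.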

How the results depend on the processing

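The 5 members called between liver and colon were called under every alternative run, with 5 to 7 members called, and with 5 when any mouse was left out. Their differences ranged from 5.15 to 7.13 for *Clec4f*, 6.16 to 7.30 for *Cd5l*, 3.16 to 5.62 for *Vsig4*, 2.74 to 3.87 for *Marco* and 1.55 to 3.72 for *Timd4*. The members not called depended on the scale. With processed signals *C1qa* turned to 0.0235 and *Cd163* to 0.11, and with median centring *C1qb* turned to −0.39, *C1qc* to −0.38 and *Csf1r* to −0.39, while *C1qa* (−0.74, limma adjusted p = 3.66e-08) and *Cd163* (−0.67, limma adjusted p = 2.47e-08) passed as lower in liver. Median centring moved the median of all probes to 0.22. The cause of the other shifts was not tested. No diet contrast called a member under any alternative with an adjusted p, or when any mouse was left out (0 to 0). At an unadjusted p under 0.05 the counts were 1 for HH *vs.* LH, 2 for HH *vs.* HL, 1 for HH *vs.* LL, 2 for the offspring and 1 for the interaction in liver, and 1 for HH *vs.* LH in colon. *Marco* in HH *vs.* LH liver ranged from −1.32 to −0.83 when each mouse was left out (adjusted p 0.213 to 0.529, limma).

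Without the mice with high *Xist*, 5 members were called between the tissues, with *Marco* at 3.10. With slide as a block, 0 members were called in all 12 contrasts. In HH *vs.* LH liver 3 of 10 members had p under 0.05 by limma, against 17.3% of all probes in this fit. They were *Marco* (−1.24), *Cd5l* (−0.59) and *C1qb* (−0.50). *Cd163* was 0.68 for HL, 0.69 for LL and 0.55 for the offspring diet in liver (limma adjusted p = 0.438, 0.565 and 1). In liver *Marco* was −0.60 for the dam, and in colon *Cd163* was 0.27 for HL and −0.43 for the interaction and *C1qc* 0.16 for the dam. Each was the single member with p under 0.05 in a contrast that had none without the block. The share of all probes with such a p in those contrasts with the block is not given here. *Timd4* for HL in liver ranged from 0.18 to 0.53 over all processing alternatives. The same-slide pairing was not given in the methods. The 2 arrays of the single HH mouse entered this fit as 2 arrays, since they lie on 2 slides.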
